A study of Mus musculus with 14 samples.

Results

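The genes described here are the matrix metalloproteinases (Mmp), the ADAMTS proteases (Adamts) and the tissue inhibitors of metalloproteinases (Timp), chosen by symbol: Mmp, Adamts or Timp followed by a number. The rule found 46 genes of the 24035 in the deposited table, namely 23 Mmp, 19 Adamts and 4 Timp genes, and used no measured value. They were measured by mRNA sequencing in whole mouse ear, a tissue of epidermis, dermis, cartilage and muscle, in mice without Langerhans cells, which are antigen-presenting cells of the epidermis. Long-term ablation gave the LC-DTA mice, while the LC-DTR mice were short-term models taken 3 days after diphtheria toxin (DT). Both sides of the ear were painted with 20 µl of 1% croton oil, an irritant that contains phorbol esters, or with its vehicle of acetone and olive oil at 4 to 1, and taken after 6 h. There were 4 LC-DTA croton oil, 3 LC-DTA vehicle, 4 LC-DTR croton oil and 3 LC-DTR vehicle samples. All 4 groups share the loss of Langerhans cells, mice that kept these cells were not analysed here, and the 2 genotypes stand for long-term against short-term loss and for DTA against DTR with DT. The promoter that drives each transgene, the age and sex of the mice and whether each sample is a separate animal are not known from the labels, so p-values measure the spread between these samples, which may be technical.

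Mmp and Adamts genes encode zinc proteases that are made as inactive precursors and cut the matrix outside the cell. Secreted and membrane-bound MMPs cut collagens, basement membrane and each other's precursors, while many ADAMTS proteases cut large proteoglycans such as aggrecan and versican or remove the N-terminal propeptide of procollagens. The 4 TIMP proteins bind the active site and block it. In skin these genes are known for wound repair and inflammation, when keratinocytes, fibroblasts and leukocytes make different members.

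Values are TPM as deposited, which divide by transcript length and by the total of a sample, so levels of different genes can be compared but the depth of a library is unknown. Of the 46 genes, 36 (18 Mmp, 14 Adamts and 4 Timp) reached 1 TPM in at least 3 samples and were tested, among 14693 genes in all. Differences are on the log2(TPM + 1) scale, given ± SE, from limma with all 14 samples in 1 fit, and a gene was called where its Benjamini-Hochberg adjusted p over all tested genes was under 0.05. This scale understates the change of genes near 1 TPM. Comparisons that share a group share its samples. On the first principal component of all genes the LC-DTR croton oil samples 2 and 3, at 5.26 and 8.06, lay apart from samples 1 and 4, at 28.5 and 28.6. Of the tissue markers, keratinocyte genes summed to 17648 to 36985 TPM and skeletal muscle genes to 1602 to 3169.5 TPM in a sample. Cartilage markers summed to 72.4 to 132 TPM, although Matn1, one of them, was at most 0.0711 TPM. Of the 3 listed markers of Langerhans cells, Cd207, which encodes langerin, was at most 1.88 TPM and Cd1d1 at most 18.6 TPM. Epcam, also listed, ranged over 196 to 609.6 TPM.

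Croton oil raised a group of these proteases and 1 inhibitor in both genotypes. In LC-DTA 13 of the 36 genes rose and 16 fell, where 24.2% and 34.5% of all tested genes did so. In LC-DTR 14 rose and 7 fell, where 22.1% and 29.5% of all tested genes did so. Rises in both genotypes were called for 12 genes, Mmp1a, Mmp1b, Mmp3, Mmp8, Mmp9, Mmp10, Mmp19, Adamts1, Adamts4, Adamts5, Adamts9 and Timp1, and falls in both for 6, Adamts6, Adamts7, Adamts10, Adamts14, Mmp15 and Mmp23. These 18 were 62.1% of the 29 called in LC-DTA and 85.7% of the 21 called in LC-DTR. Over all tested genes, the calls shared in the same direction were 54.8% of those in LC-DTA and 62.3% of those in LC-DTR. Of the 12 genes, Mmp1a passed the filter only through the LC-DTA croton oil samples, where it was highest. Mmp1b, Mmp8 and Mmp9 reached 1 TPM in fewer than 3 vehicle samples, so they passed only with the croton oil samples. The rises of these genes and of Mmp1a are tied to the filter. The median log2 difference of the 36 genes was -0.30 in LC-DTA and 0.058 in LC-DTR, and that of all tested genes was -0.090 in LC-DTA and -0.060 in LC-DTR.

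The genotypes differed before and after the irritant. Under vehicle 19 of the 36 genes were higher in LC-DTA than in LC-DTR and 0 were lower, where 19.1% of all tested genes were higher and 5.34% lower. At an unadjusted p under 0.05, 2 of the 36, Adamts1 and Mmp28, were lower. After croton oil 18 were higher in LC-DTA and 4 lower, where 34.3% of all tested genes were higher and 18.0% lower. The croton oil response itself, LC-DTA minus LC-DTR, was called for 13 of the 36, 4 with a positive and 9 with a negative difference, where 10.5% and 12.6% of all tested genes had one. Without LC-DTR croton oil samples 2 and 3 together, 3 positive and 6 negative differences were called, and 13 genes rose and 10 fell in LC-DTR. The split between the genotypes depends on the scaling. Rescaling by median ratios moved the median difference of all genes under vehicle to -0.013, against 0.097 as deposited, and the calls over all genes to 1728 higher and 1712 lower, against 2810 and 785. The called members were then 19 higher and 2 lower, and 15 higher and 1 lower with quantile normalization. After croton oil the calls over all genes moved to 3686 higher and 3709 lower, against 5041 and 2647, and those of the members to 14 higher and 4 lower. For croton oil in LC-DTA the calls over all genes moved to 4388 higher and 4112 lower, against 3552 and 5067, and those of the members to 13 higher and 15 lower.

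**Figure D1:**
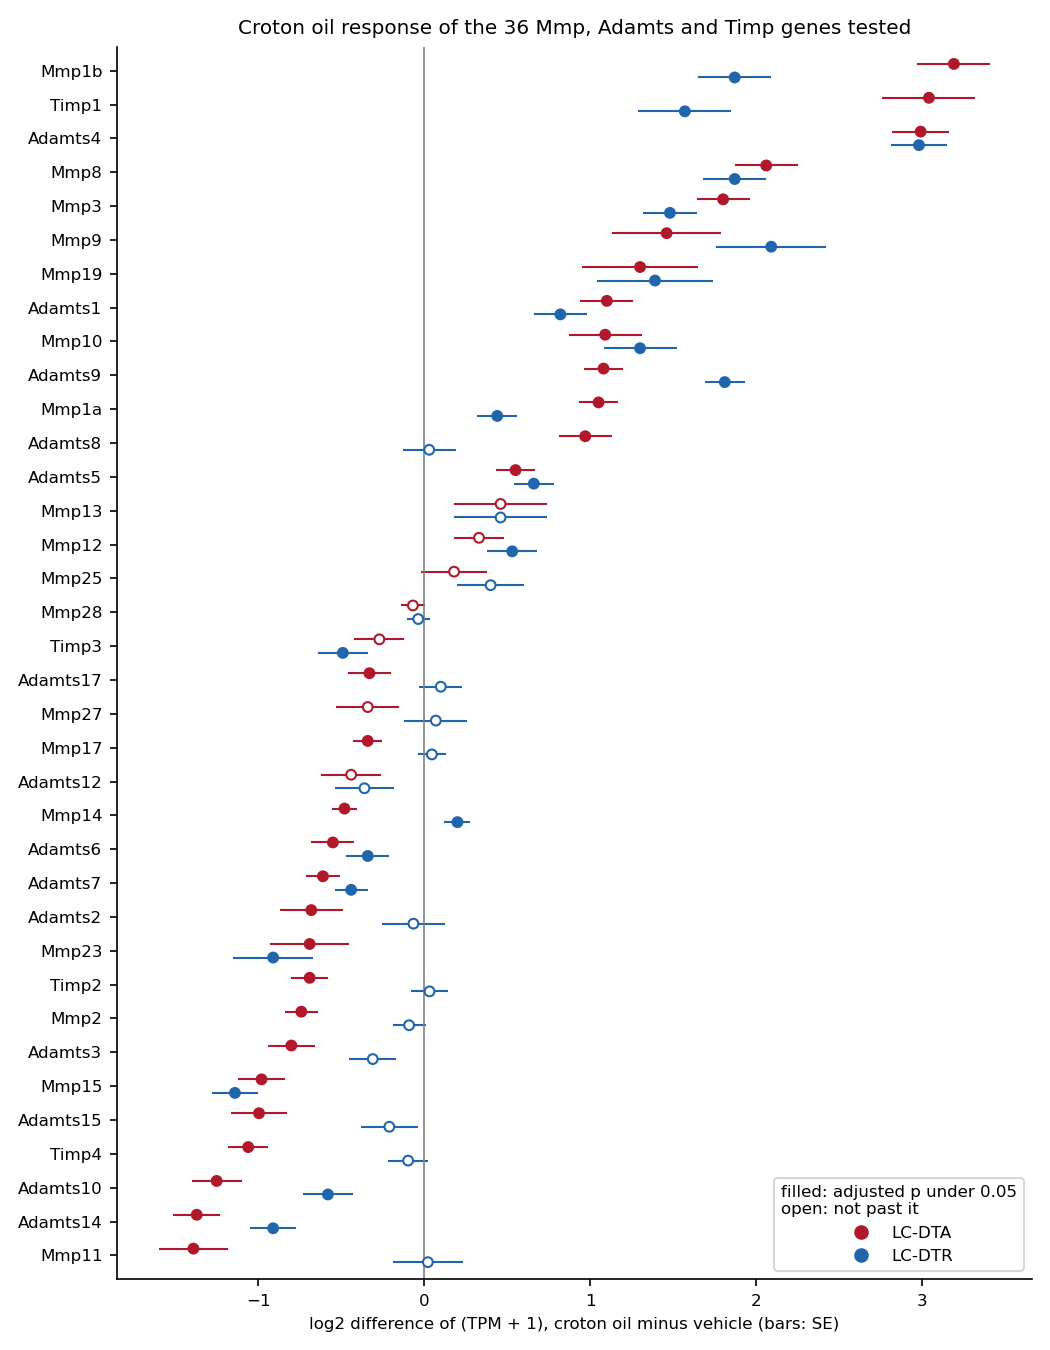
The log2 difference of TPM + 1, croton oil minus vehicle, with its SE is plotted for each of the 36 tested genes, in LC-DTA in red and in LC-DTR in blue, with filled points for adjusted p under 0.05. Mmp1b, Timp1 and Adamts4 lie at the top of the plot in LC-DTA, at 3.19, 3.04 and 2.99, and Mmp11 at the bottom, at -1.39 in LC-DTA and 0.022 in LC-DTR.

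Of the 23 Mmp genes 10 lie side by side on chromosome 9, on GRCm38 at chr9:7272514-7699585, a tandem cluster of 427 kb that holds stromelysins 1 and 2 (Mmp3 and Mmp10), collagenases and macrophage elastase. In order they are Mmp13, Mmp12, Mmp1b, Mmp3, Mmp1a, Mmp10, Mmp8, Mmp27, Mmp20 and Mmp7, and only Mmp1b is on the minus strand. Of the 8 tested, 5 rose and 0 fell after croton oil in LC-DTA, and 6 rose and 0 fell in LC-DTR, with a median of 1.07 in LC-DTA and 0.91 in LC-DTR. Among them Mmp1a, Mmp1b, Mmp8 and Mmp12 passed the filter only through croton oil samples, so these counts and medians are tied in part to the filter. Of the other 13 Mmp genes 10 were tested, of which 2 rose and 6 fell in LC-DTA, and 3 rose and 2 fell in LC-DTR, with a median of -0.41 in LC-DTA and 0.034 in LC-DTR. Rises were called for 24.2% of all tested genes in LC-DTA and 22.1% in LC-DTR, and falls for 34.5% and 29.5%. Enamelysin (Mmp20), known from tooth enamel, stayed at or under 0.0634 TPM, and matrilysin (Mmp7), known from gland epithelia, was listed at 0 in every sample.

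Most of the cluster genes hold the same short motif before their start. Shown are the 120 bases before the RefSeq start of 5 cluster genes with the AP-1 motif and of 2 without it, 5′ to 3′ on the strand of the gene on GRCm38.p6, with TGANTCA and TATAAA in capitals. AP-1 is the Fos and Jun dimer, known from cultured cells to act at this motif after phorbol esters.
Mmp3, chr9:7445702-7445821, plus strand: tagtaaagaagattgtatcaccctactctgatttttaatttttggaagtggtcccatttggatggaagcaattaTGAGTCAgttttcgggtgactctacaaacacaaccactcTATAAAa
Mmp10, chr9:7502222-7502341, plus strand: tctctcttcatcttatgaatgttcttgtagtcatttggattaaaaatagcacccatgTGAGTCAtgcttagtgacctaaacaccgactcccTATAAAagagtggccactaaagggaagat
Mmp1a, chr9:7464021-7464140, plus strand: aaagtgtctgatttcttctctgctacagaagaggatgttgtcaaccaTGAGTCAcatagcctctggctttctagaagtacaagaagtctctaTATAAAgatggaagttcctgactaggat
Mmp1b, chr9:7388027-7388146, minus strand: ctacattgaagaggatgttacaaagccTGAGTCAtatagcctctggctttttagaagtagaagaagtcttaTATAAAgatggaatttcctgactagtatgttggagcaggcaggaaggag
Mmp13, chr9:7272394-7272513, plus strand: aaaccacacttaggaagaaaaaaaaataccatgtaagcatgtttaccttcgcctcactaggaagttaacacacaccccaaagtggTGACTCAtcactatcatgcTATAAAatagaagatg
Mmp8, chr9:7558309-7558428, plus strand: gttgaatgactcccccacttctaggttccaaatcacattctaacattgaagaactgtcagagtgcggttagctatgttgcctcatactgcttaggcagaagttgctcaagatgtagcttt
Mmp27, chr9:7571276-7571395, plus strand: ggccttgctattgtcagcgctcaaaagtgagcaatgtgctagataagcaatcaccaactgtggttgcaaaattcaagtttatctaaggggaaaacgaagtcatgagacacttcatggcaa
TGANTCA, which reads the same way on both strands, stood within the window from 250 bases before to 50 after the start in 8 of the 10 cluster genes and in 0 of the other 22 members with a RefSeq window, against 8.97% of 27025 genes. TATAAA on the gene's strand stood in 8 of the 10 and in 2 of the other 22, against 9.77% of the genes. Mmp12 has 2 windows: both motifs lay in that at chr9:7347124-7347423, and that at chr9:7344147-7344446 held neither. Mmp9, Mmp19, Adamts4 and Adamts5, which rose in both genotypes, had no RefSeq window. The first base of TGANTCA lay 46 bases before the start in Mmp3, 63 in Mmp10, 73 in Mmp1a, 93 in Mmp1b and 35 in Mmp13. Mmp8 and Mmp27 held neither motif. Among the genes shown, Mmp8 rose in both genotypes with no match and Mmp13 was called in neither with one. Of the 8 members with a window that rose in both genotypes, 4 held TGANTCA, and Adamts1, Adamts9 and Timp1 were among those without it. Mmp20 and Mmp7 held it and were too low to be tested. A match is a description of these letters, and binding was not measured.

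**Figure D2:**
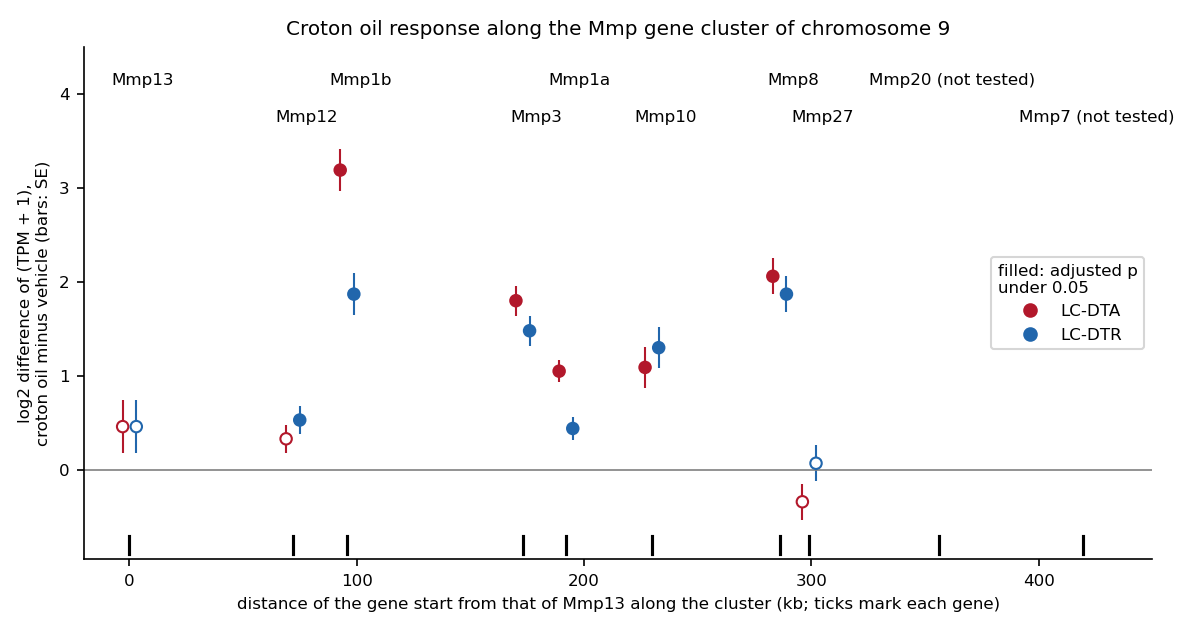
The log2 difference of TPM + 1, croton oil minus vehicle, with its SE is plotted against the distance of each gene's start from that of Mmp13 in kb, with LC-DTA in red, LC-DTR in blue and filled points for adjusted p under 0.05. Of the 8 tested genes from Mmp13 to Mmp27, 5 are filled in LC-DTA and 6 in LC-DTR. Mmp13 is open in both genotypes at 0.46, and Mmp1b reaches 3.19 in LC-DTA and 1.87 in LC-DTR.

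Stromelysin-1 (Mmp3, chr9:7445822-7455975), which cuts proteoglycans and fibronectin and activates other MMP precursors, had the highest TPM of all 46 genes in the LC-DTA croton oil samples. It stood at 708, 845, 763 and 630.3 TPM in the croton oil samples and 255, 176 and 205 TPM in the vehicle samples of LC-DTA. In LC-DTR, Mmp3 stood at 141, 103, 106 and 144 TPM in the croton oil samples and 36.0, 44.1 and 50.8 TPM in the vehicle samples. The 4 groups did not overlap: every LC-DTA vehicle sample lay above every LC-DTR croton oil sample. Croton oil raised it by 1.80 ± 0.16 (adjusted p = 2.03e-06) in LC-DTA and by 1.48 ± 0.16 (adjusted p = 1.14e-05) in LC-DTR, and the difference of these responses was not called (0.33 ± 0.22, adjusted p = 0.309). It was higher in LC-DTA by 2.58 ± 0.15 (adjusted p = 2.13e-07) after croton oil, a 5.97-fold ratio of mean TPM, and by 2.25 ± 0.17 (adjusted p = 2.09e-05) under vehicle, a 4.86-fold ratio.

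Stromelysin-2 (Mmp10), a close relative made by keratinocytes at wound edges, stood at 17.5, 17.5, 14.7 and 13.1 TPM in the croton oil samples and 8.42, 3.75 and 9.52 TPM in the vehicle samples of LC-DTA. In LC-DTR, Mmp10 stood at 6.29, 6.30, 5.81 and 6.16 TPM in the croton oil samples and 1.33, 2.62 and 1.88 TPM in the vehicle samples. Among the LC-DTA samples only vehicle sample 2, the lowest of its group, lay below the LC-DTR croton oil samples. It rose by 1.09 ± 0.22 (adjusted p = 9.18e-04) in LC-DTA and by 1.30 ± 0.22 (adjusted p = 3.40e-04) in LC-DTR, and it was higher in LC-DTA by 1.22 ± 0.21 (adjusted p = 2.97e-04) after croton oil and by 1.43 ± 0.24 (adjusted p = 0.00142) under vehicle. The response did not differ between the genotypes past the threshold (-0.21 ± 0.32, adjusted p = 0.659).

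Stromelysin-3 (Mmp11), which furin activates inside the cell and which is not in the cluster, went the other way in 1 genotype. It stood at 3.18, 2.73, 1.66 and 2.70 TPM in the croton oil samples and 7.16, 7.97 and 9.73 TPM in the vehicle samples of LC-DTA. In LC-DTR, Mmp11 stood at 4.92, 5.90, 8.31 and 4.07 TPM in the croton oil samples and 7.19, 4.60 and 5.07 TPM in the vehicle samples. The LC-DTA croton oil samples lay below all other samples, while the LC-DTR groups overlapped. It fell in LC-DTA by 1.39 ± 0.21 (adjusted p = 7.55e-05) and was not called in LC-DTR (0.022 ± 0.21, adjusted p = 0.937), and the difference of the responses was -1.41 ± 0.29 (adjusted p = 0.00457). Its exons share 155 bases with Chchd10 on the other strand, which reached 103 TPM, and the sources used here do not say whether reads were counted by strand.

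Mmp1b rose in both genotypes. Mmp1a and Mmp1b are the rodent counterparts of human interstitial collagenase, MMP1. Mmp1b stood at 11.2, 19.2, 20.4 and 20.7 TPM in the croton oil samples and 1.03, 0.943 and 1.08 TPM in the vehicle samples of LC-DTA. In LC-DTR, Mmp1b stood at 4.84, 3.02, 4.32 and 6.62 TPM in the croton oil samples and 0.213, 0.724 and 0.672 TPM in the vehicle samples. All croton oil samples lay above all vehicle samples, and all LC-DTA croton oil samples above those of LC-DTR. Of the vehicle samples only LC-DTA samples 1 and 3 reached 1 TPM, so Mmp1b passed the filter only with the croton oil samples. It rose by 3.19 ± 0.22 (adjusted p = 6.18e-07) in LC-DTA and by 1.87 ± 0.22 (adjusted p = 2.42e-05) in LC-DTR, and was higher in LC-DTA after croton oil by 1.73 ± 0.21 (adjusted p = 2.37e-05), with no call under vehicle (0.41 ± 0.24, adjusted p = 0.227). The responses differed by 1.32 ± 0.32 (adjusted p = 0.0102), a call lost with a pseudocount of 0.1, at 0.98 and adjusted p = 0.147. The size of the rise turns on the pseudocount: with 0.1 it was 3.97 in LC-DTA and 2.98 in LC-DTR, and with 5 it was 1.90 in LC-DTA and 0.80 in LC-DTR.

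Mmp1a lay below Mmp1b in every sample. It stood at 1.76, 1.82, 1.04 and 1.40 TPM in the croton oil samples and 0.225, 0.118 and 0.261 TPM in the vehicle samples of LC-DTA. In LC-DTR, Mmp1a stood at 0.359, 0.387, 0.417 and 0.556 TPM in the croton oil samples and 0, 0.109 and 0.0421 TPM in the vehicle samples, so that 1 vehicle sample was listed at 0. As for Mmp1b, all croton oil samples lay above all vehicle samples, and those of LC-DTA above those of LC-DTR. Mmp1a reached 1 TPM only in the LC-DTA croton oil samples, so it was tested only because of the group where it was highest. Its calls in that direction are tied to the filter. It rose by 1.05 ± 0.12 (adjusted p = 8.15e-06) in LC-DTA and by 0.44 ± 0.12 (adjusted p = 0.00561) in LC-DTR and was higher in LC-DTA after croton oil by 0.80 ± 0.11 (adjusted p = 5.16e-05). The difference of the responses, 0.60 ± 0.16 (adjusted p = 0.0179), was lost without LC-DTA vehicle sample 2 (0.55, adjusted p = 0.0531), without LC-DTR croton oil samples 2 and 3 (0.58, adjusted p = 0.0504) and with a pseudocount of 0.1 (0.55, adjusted p = 0.382). The Mmp1a and Mmp1b transcripts of GENCODE M21 are 90.5% identical over 1453 aligned bases and share an exact stretch of 134 bases, so reads could be split between them, and the level of each is uncertain.

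Neutrophil collagenase (Mmp8), stored in neutrophil granules, stood at 4.35, 4.48, 4.97 and 5.65 TPM in the croton oil samples and 0.389, 0.243 and 0.583 TPM in the vehicle samples of LC-DTA. In LC-DTR, Mmp8 stood at 5.50, 3.29, 2.10 and 4.03 TPM in the croton oil samples and 0.210, 0.172 and 0.374 TPM in the vehicle samples. Croton oil and vehicle samples did not overlap in either genotype, while the genotypes overlapped. Mmp8 reached 1 TPM in croton oil samples only, so it passed the filter only through them. It rose by 2.06 ± 0.19 (adjusted p = 2.67e-06) in LC-DTA and by 1.87 ± 0.19 (adjusted p = 7.85e-06) in LC-DTR, or by 3.35 in LC-DTA and 3.41 in LC-DTR with a pseudocount of 0.1. The genotypes were not called different after croton oil (0.36 ± 0.18, adjusted p = 0.106), except without LC-DTR croton oil sample 1 (0.53, adjusted p = 0.0124).

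Gelatinase B (Mmp9), which cuts denatured and type IV collagen and is also stored in neutrophils, stood at 5.04, 5.35, 7.35 and 3.67 TPM in the croton oil samples and 0.882, 0.383 and 3.41 TPM in the vehicle samples of LC-DTA. In LC-DTR, Mmp9 stood at 5.73, 3.82, 3.08 and 6.53 TPM in the croton oil samples and 0.172, 0.241 and 0.598 TPM in the vehicle samples. LC-DTA vehicle sample 3 lay far above the other vehicle samples and just below the lowest LC-DTA croton oil sample. Of the vehicle samples only this one reached 1 TPM, so Mmp9 passed the filter only with the croton oil samples. Mmp9 rose by 1.46 ± 0.33 (adjusted p = 0.00185) in LC-DTA and by 2.09 ± 0.33 (adjusted p = 1.95e-04) in LC-DTR, with no call for the difference of the responses (-0.62 ± 0.47, adjusted p = 0.354). It was not called between the genotypes under vehicle (0.77 ± 0.35, adjusted p = 0.129), except without LC-DTA vehicle sample 2 (1.12, adjusted p = 0.0432).

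Neutrophil markers moved with Mmp8 and Mmp9. The 7 listed markers in the table, Mmp25 among them, summed to 440.0 to 669.8 TPM in the LC-DTA croton oil samples, 35.1 to 65.4 TPM in LC-DTA vehicle, 261 to 766 TPM in LC-DTR croton oil and 26.0 to 69.2 TPM in LC-DTR vehicle. None of the 7 was at 0 in every sample. In each genotype 6 of the 7 rose, where 24.2% of all tested genes did so in LC-DTA and 22.1% in LC-DTR. The exception was Mmp25, a lipid-anchored MMP of neutrophils and itself a member, at 0.18 ± 0.20 (adjusted p = 0.468) in LC-DTA and 0.40 ± 0.20 (adjusted p = 0.117) in LC-DTR. The part of neutrophils in the Mmp8 and Mmp9 results was not tested, and in whole ear more cells of a type and more RNA per cell cannot be told apart.

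Collagenase-3 (Mmp13), the main interstitial collagenase of the mouse, was not called after croton oil in either genotype. It stood at 4.43, 4.41, 4.37 and 3.41 TPM in the croton oil samples and 2.50, 1.51 and 4.91 TPM in the vehicle samples of LC-DTA. In LC-DTR, Mmp13 stood at 1.67, 0.700, 1.18 and 2.23 TPM in the croton oil samples and 0.318, 0.653 and 1.37 TPM in the vehicle samples. Vehicle samples spread widely in both genotypes and overlapped with croton oil samples. Levels in LC-DTA were higher by 1.11 ± 0.25 (adjusted p = 0.00249) after croton oil and by 1.11 ± 0.29 (adjusted p = 0.0149) under vehicle. The vehicle call was lost without LC-DTR vehicle sample 1 or 2 or LC-DTA vehicle sample 3, at 0.78 to 1.08 and adjusted p = 0.0542 to 0.0739. Without LC-DTA vehicle sample 3 its rise in LC-DTA was called (0.79, adjusted p = 0.0206).

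**Figure D3:**
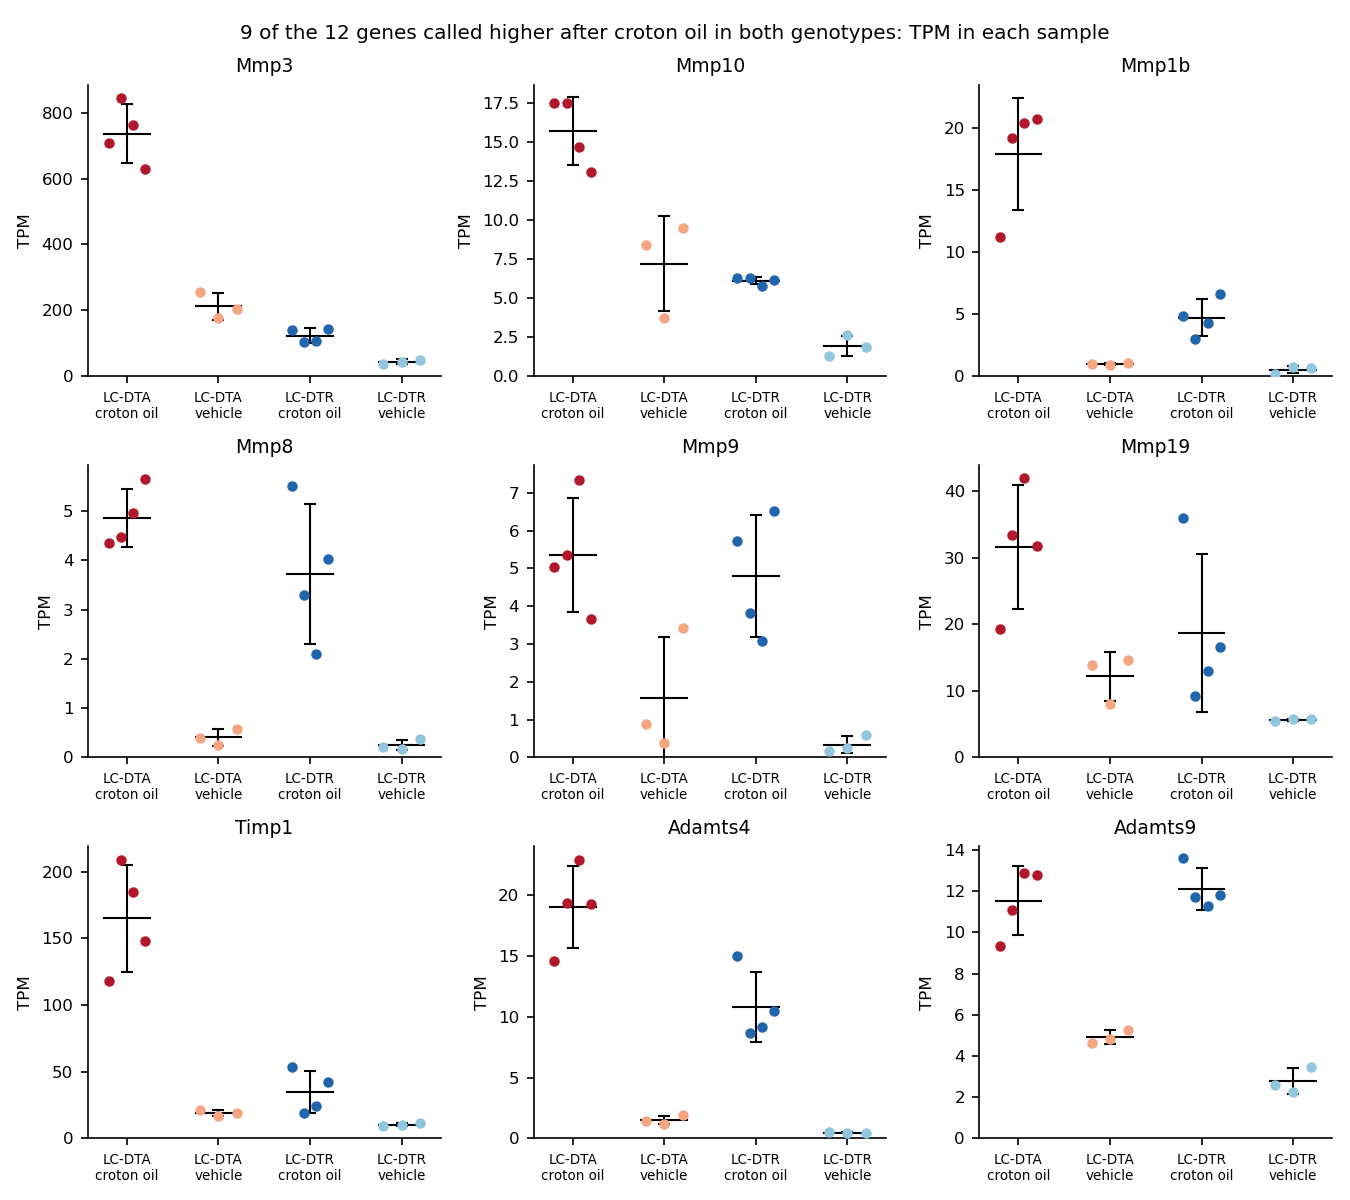
TPM in each sample are plotted for 9 of the 12 genes that rose in both genotypes, with points for samples and bars for the mean ± SD of a group. In each panel all croton oil samples of a genotype lie above its vehicle samples. In the panels of Mmp3, Mmp10, Mmp1b and Timp1 the LC-DTA croton oil samples also lie above all LC-DTR croton oil samples.

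Gelatinase A (Mmp2), its activator Mmp14 and Timp2 form the known activation complex in which membrane-bound MMP14 holds TIMP2, which docks the MMP2 precursor. All 3 genes were higher in LC-DTA than in LC-DTR under vehicle and fell after croton oil in LC-DTA. Mmp2 (chr8:92827291-92853420) stood at 332, 388, 344 and 379 TPM in the croton oil samples and 574, 578 and 659 TPM in the vehicle samples of LC-DTA. In LC-DTR, Mmp2 stood at 347, 381, 373 and 309 TPM in the croton oil samples and 393, 313 and 426 TPM in the vehicle samples. The 3 LC-DTA vehicle samples lay above the other 11, which overlapped. Mmp2 was higher in LC-DTA under vehicle by 0.69 ± 0.11 (adjusted p = 0.00126), fell in LC-DTA by 0.74 ± 0.10 (adjusted p = 5.23e-05) and was not called in LC-DTR (-0.091 ± 0.10, adjusted p = 0.487), and the responses differed by -0.65 ± 0.15 (adjusted p = 0.00779).

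Mmp14 (chr14:54431612-54445364) stood at 129, 129, 127 and 109.8 TPM in the croton oil samples and 164, 165 and 191 TPM in the vehicle samples of LC-DTA. In LC-DTR, Mmp14 stood at 137, 131, 123 and 128 TPM in the croton oil samples and 118, 103 and 119 TPM in the vehicle samples. Again the LC-DTA vehicle samples lay above all others, and LC-DTA croton oil sample 4 was the lowest of its group. Mmp14 was higher in LC-DTA under vehicle by 0.61 ± 0.084 (adjusted p = 6.83e-04), fell in LC-DTA by 0.48 ± 0.078 (adjusted p = 1.57e-04), and the responses differed by -0.68 ± 0.11 (adjusted p = 0.00145). Its rise in LC-DTR, 0.20 ± 0.078 (adjusted p = 0.048), was lost in 10 of the 14 fits with 1 sample left out, at 0.13 to 0.23 and adjusted p = 0.0512 to 0.216, and without samples 2 and 3 (0.23, adjusted p = 0.0636).

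Timp2 (chr11:118301069-118355740) stood at 286, 362, 322 and 331 TPM in the croton oil samples and 488, 531 and 556 TPM in the vehicle samples of LC-DTA. In LC-DTR, Timp2 stood at 328, 360.5, 333 and 297 TPM in the croton oil samples and 369, 265 and 340.4 TPM in the vehicle samples. The pattern was that of Mmp2, with only the LC-DTA vehicle samples apart. Timp2 was higher in LC-DTA than in LC-DTR under vehicle by 0.70 ± 0.12 (adjusted p = 0.00128). It fell after croton oil in LC-DTA by 0.69 ± 0.11 (adjusted p = 1.15e-04) and was not called in LC-DTR (0.032 ± 0.11, adjusted p = 0.825), and the responses differed by -0.72 ± 0.15 (adjusted p = 0.00512).

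The summed fibroblast markers were also highest in the LC-DTA vehicle samples. The 8 markers summed to 3842 to 5195 TPM in LC-DTA croton oil, 6091 to 7534 TPM in LC-DTA vehicle, 2309 to 3243 TPM in LC-DTR croton oil and 2233 to 4192 TPM in LC-DTR vehicle, and none was at 0 in every sample. Single markers could differ from the sum: Pdgfra averaged 41.7 ± 5.69 TPM in LC-DTA croton oil and 34.7 ± 3.39 TPM in LC-DTA vehicle, and lumican (Lum) ranged over 224 to 326 TPM in LC-DTA croton oil and 306 to 325 TPM in LC-DTA vehicle. All 8 were higher in LC-DTA under vehicle, 5 of the 8 fell after croton oil in LC-DTA, and 1 of the 8, decorin (Dcn), was called for the difference of the responses, at -0.77 ± 0.22 (adjusted p = 0.0225). After croton oil 6 of the 8 markers were still higher in LC-DTA, whereas Mmp2 (0.035 ± 0.097, adjusted p = 0.781), Mmp14 (-0.070 ± 0.072, adjusted p = 0.44) and Timp2 (-0.021 ± 0.10, adjusted p = 0.874) were not called. Summed endothelial markers and summed smooth muscle and pericyte markers were likewise highest in LC-DTA vehicle. The 6 endothelial markers, none at 0 in every sample, summed to 125 to 157 TPM in LC-DTA croton oil, 174 to 192 TPM in LC-DTA vehicle, 91.8 to 120.1 TPM in LC-DTR croton oil and 87.2 to 107 TPM in LC-DTR vehicle. Of these, 4 were higher in LC-DTA under vehicle, 4 fell after croton oil in LC-DTA, and 3, Cdh5, Egfl7 and Tie1, were called with a negative difference of the responses. The 5 smooth muscle and pericyte markers, also none at 0 in every sample, summed to 77.8 to 121 TPM in LC-DTA croton oil, 125 to 146 TPM in LC-DTA vehicle, 49.2 to 71.6 TPM in LC-DTR croton oil and 67.1 to 102 TPM in LC-DTR vehicle. Of the 4 tested, 3 were higher in LC-DTA under vehicle, 2 fell in LC-DTA, and 0 were called for the difference of the responses. Beside all these marker counts, 19.1% of all tested genes were higher in LC-DTA under vehicle and 34.3% after croton oil. In LC-DTA 34.5% of all tested genes fell, and 12.6% had a negative difference of the responses, near the 1 of 8 fibroblast markers. The part of fibroblasts, endothelial cells, smooth muscle and pericytes in the results for Mmp2, Mmp14, Timp2 and the other genes higher in LC-DTA under vehicle was not tested.

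**Figure D4:**
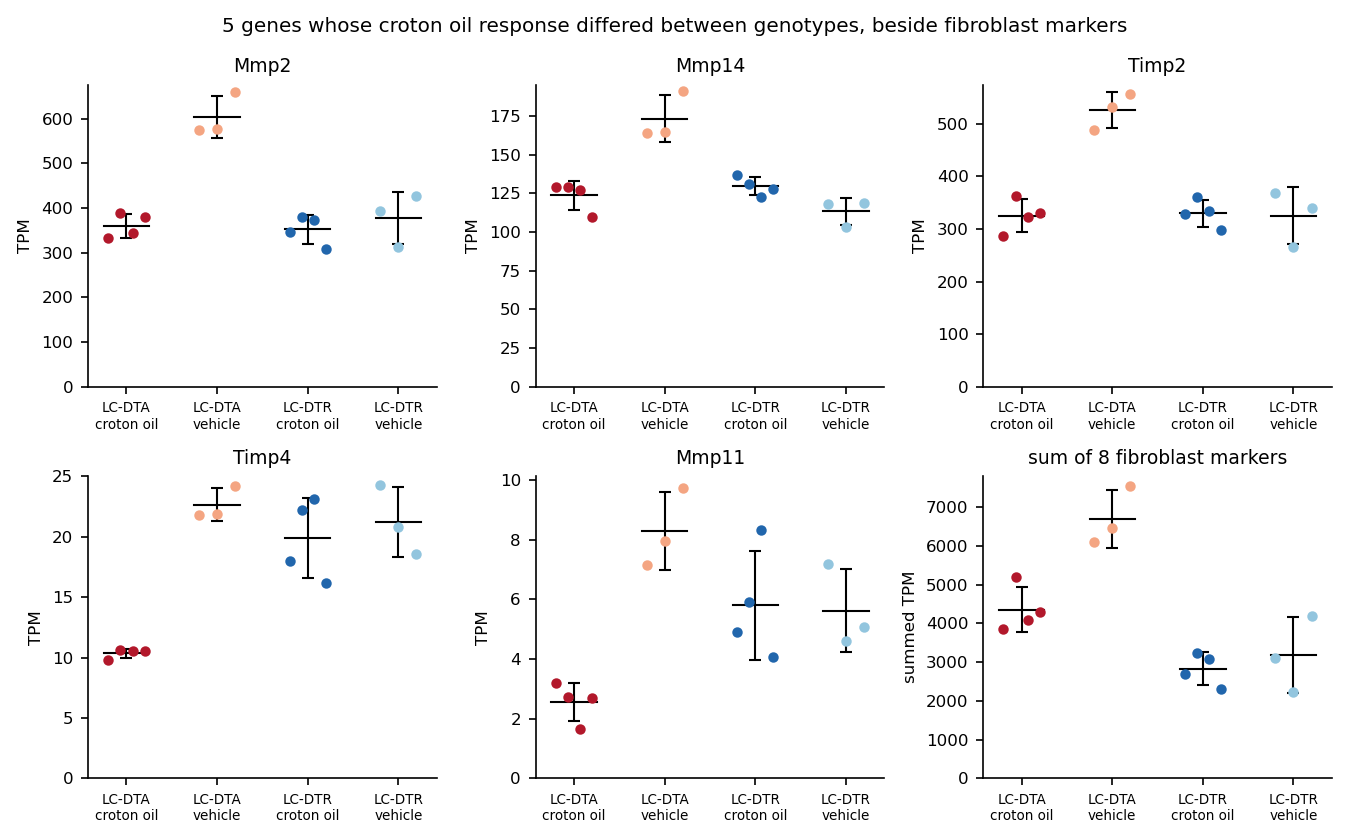
TPM in each sample are plotted for Mmp2, Mmp14, Timp2, Timp4 and Mmp11, with the summed TPM of 8 fibroblast markers in the last panel, points for samples and bars for the mean ± SD of a group. The LC-DTA vehicle samples are the highest for Mmp2, Mmp14, Timp2 and the markers, and the LC-DTA croton oil samples are the lowest for Timp4 and Mmp11.

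Of the other membrane-anchored genes Mmp15 fell in both genotypes and Mmp17 in LC-DTA. Mmp15, a second transmembrane protease, stood at 9.13, 8.38, 8.23 and 8.87 TPM in the croton oil samples and 16.7, 21.1 and 16.4 TPM in the vehicle samples of LC-DTA. In LC-DTR, Mmp15 stood at 6.55, 8.30, 9.14 and 5.53 TPM in the croton oil samples and 15.3, 17.3 and 19.0 TPM in the vehicle samples. Croton oil and vehicle samples did not overlap in either genotype, and it fell by 0.98 ± 0.14 (adjusted p = 5.39e-05) in LC-DTA and by 1.14 ± 0.14 (adjusted p = 2.80e-05) in LC-DTR. It differed between the genotypes in neither treatment past the threshold, except after croton oil without LC-DTR croton oil samples 2 and 3 (0.46, adjusted p = 0.00813) and without LC-DTR croton oil sample 3 (0.32, adjusted p = 0.0444). Mmp17, lipid-anchored, averaged 0.693 ± 0.0503 TPM in LC-DTA croton oil and 1.15 ± 0.0665 TPM in LC-DTA vehicle, and 1.08 ± 0.161 TPM in LC-DTR croton oil and 1.01 ± 0.0867 TPM in LC-DTR vehicle. It fell in LC-DTA by 0.34 ± 0.086 (adjusted p = 0.0036) and was not called in LC-DTR (0.046 ± 0.086, adjusted p = 0.678), a difference of -0.39 ± 0.12 (adjusted p = 0.033), a call lost without LC-DTR croton oil samples 2 and 3 (-0.41, adjusted p = 0.0544) and without LC-DTA croton oil samples 3 and 4 (-0.36, adjusted p = 0.108). Mmp16 and Mmp24 stayed at or under 0.982 and 0.205 TPM and were not tested.

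Of the remaining Mmp genes, Mmp19, an MMP that cuts basement membrane proteins, rose in both genotypes with a wide spread. It stood at 19.3, 33.4, 42.0 and 31.7 TPM in the croton oil samples and 13.9, 7.97 and 14.6 TPM in the vehicle samples of LC-DTA. In LC-DTR, Mmp19 stood at 35.9, 9.21, 13.0 and 16.5 TPM in the croton oil samples and 5.50, 5.79 and 5.73 TPM in the vehicle samples. LC-DTR croton oil sample 1 lay far above the other 3 of its group and within the LC-DTA croton oil range. It rose by 1.30 ± 0.35 (adjusted p = 0.00613) in LC-DTA, a call lost without samples 3 and 4 of that group (1.05, adjusted p = 0.0613), and by 1.39 ± 0.35 (adjusted p = 0.00496) in LC-DTR. After croton oil it was higher in LC-DTA by 0.85 ± 0.33 (adjusted p = 0.0419), a call lost in 8 of the 14 fits with 1 sample left out, at 0.59 to 0.85 and adjusted p = 0.0502 to 0.136, and without LC-DTR croton oil samples 2 and 3 (0.31, adjusted p = 0.466). Without those samples the difference under vehicle was called (0.94, adjusted p = 0.0404). The call after croton oil was also lost without LC-DTA croton oil samples 3 and 4 together (0.60, adjusted p = 0.258). The exons of Mmp19 share 789 bases with Tmem198b on the other strand, which reached 9.48 TPM.

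Mmp23, an MMP anchored by its N terminus and without the usual hemopexin domain, was higher in LC-DTA in both treatments and fell after croton oil in both genotypes. It stood at 8.46, 11.9, 7.30 and 6.92 TPM in the croton oil samples and 14.4, 12.3 and 16.4 TPM in the vehicle samples of LC-DTA. In LC-DTR, Mmp23 stood at 1.74, 2.71, 3.35 and 1.59 TPM in the croton oil samples and 3.83, 4.32 and 8.06 TPM in the vehicle samples. LC-DTA samples lay above LC-DTR samples of the same treatment without overlap. The LC-DTA level was higher by 1.53 ± 0.22 (adjusted p = 8.23e-05) after croton oil and by 1.31 ± 0.25 (adjusted p = 0.00292) under vehicle. It fell by 0.69 ± 0.24 (adjusted p = 0.022) in LC-DTA and by 0.91 ± 0.24 (adjusted p = 0.00568) in LC-DTR, and the LC-DTA call was lost without LC-DTA vehicle sample 1 or 3 or croton oil sample 3 or 4, at -0.69 to -0.60 and adjusted p = 0.0542 to 0.0825, and without croton oil samples 3 and 4 together (-0.47, adjusted p = 0.187).

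Macrophage elastase (Mmp12) averaged 0.860 ± 0.269 TPM in LC-DTA croton oil and 0.465 ± 0.0139 TPM in LC-DTA vehicle, and 0.842 ± 0.401 TPM in LC-DTR croton oil and 0.257 ± 0.0188 TPM in LC-DTR vehicle. Mmp12 reached 1 TPM in croton oil samples only, so it passed the filter only through them. It rose in LC-DTR (0.53 ± 0.15, adjusted p = 0.0105) and was not called in LC-DTA (0.33 ± 0.15, adjusted p = 0.0737) except without LC-DTR croton oil samples 2 and 3 (0.33, adjusted p = 0.0324), with no call for the difference (-0.19 ± 0.21, adjusted p = 0.539), and its exons share 157 bases with those of Mmp1b on the other strand. Mmp27, a cluster gene whose human counterpart is kept inside the cell, stood at 1.36, 2.80, 1.46 and 2.36 TPM in the croton oil samples and 2.28, 2.68 and 3.24 TPM in the vehicle samples of LC-DTA. In LC-DTR, Mmp27 stood at 0.894, 1.63, 1.21 and 0.750 TPM in the croton oil samples and 0.733, 0.874 and 1.45 TPM in the vehicle samples. Croton oil and vehicle samples overlapped in both genotypes, and Mmp27 was higher in LC-DTA by 0.49 ± 0.18 (adjusted p = 0.0336) after croton oil and by 0.89 ± 0.20 (adjusted p = 0.00723) under vehicle. The call after croton oil was lost without LC-DTA croton oil samples 3 and 4 (0.51, adjusted p = 0.0806). Epilysin (Mmp28), an MMP of resting keratinocytes, averaged 30.5 ± 0.291 TPM in LC-DTA croton oil and 32.1 ± 2.02 TPM in LC-DTA vehicle, and 36.0 ± 1.54 TPM in LC-DTR croton oil and 37.1 ± 3.87 TPM in LC-DTR vehicle. It was called in neither croton oil comparison and was lower in LC-DTA after croton oil (-0.23 ± 0.065, adjusted p = 0.00874), a call lost without LC-DTA croton oil samples 3 and 4 (-0.22, adjusted p = 0.0563). Its exons share 466 bases with 1700020L24Rik on the other strand, which reached 52.6 TPM. Mmp21, known from left-right patterning of the embryo, stayed at or under 0.0510 TPM.

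Summed over the 23 genes, Mmp TPM came to 1253 to 1509 in the LC-DTA croton oil samples, 1013 to 1170.4 in LC-DTA vehicle, 673 to 742 in LC-DTR croton oil and 540.1 to 676 in LC-DTR vehicle. Mmp2, Mmp3 and Mmp14 together made up 84.3 to 90.7% of that sum in every sample. The share of Mmp3 was 50.3 to 56.0% in LC-DTA croton oil, 17.3 to 23.2% in LC-DTA vehicle, 14.7 to 21.3% in LC-DTR croton oil and 5.79 to 8.16% in LC-DTR vehicle. Mmp3 was the most abundant Mmp transcript in the 4 LC-DTA croton oil samples and Mmp2 in the other 10 samples.

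**Figure D5:**
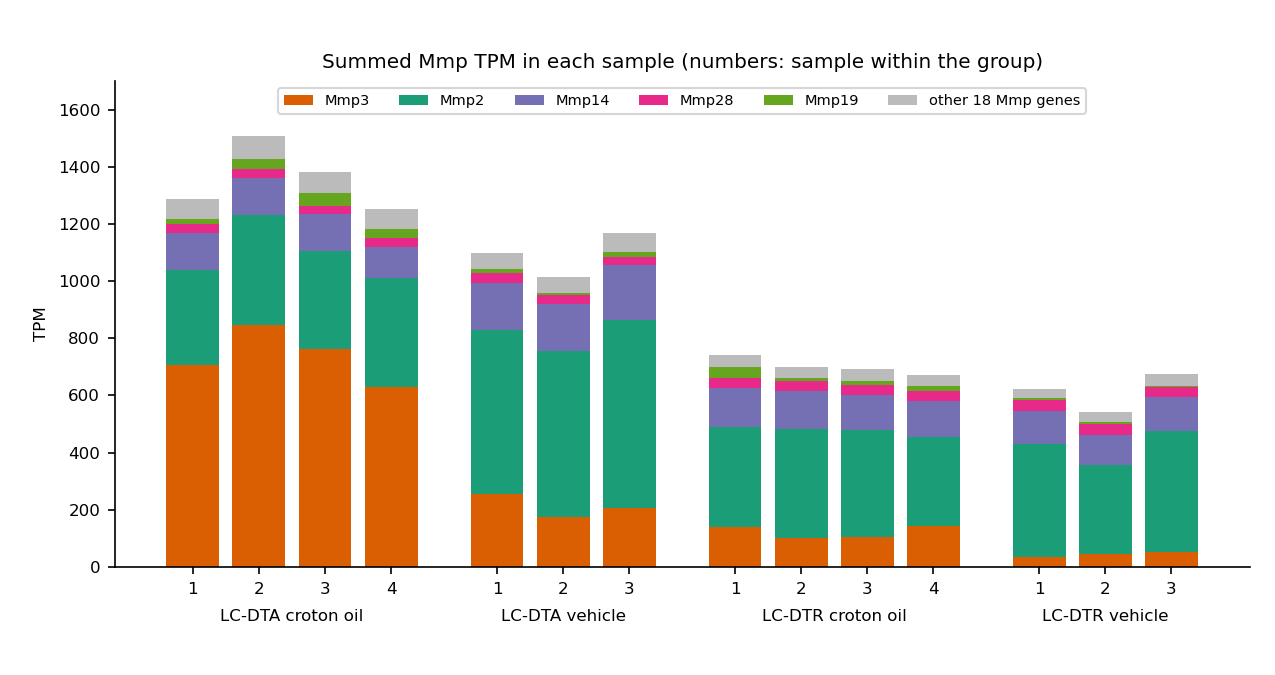
Stacked bars give the TPM of Mmp3, Mmp2, Mmp14, Mmp28, Mmp19 and the other 18 Mmp genes in each of the 14 samples. The Mmp3 part is 630.3 to 845 TPM in the LC-DTA croton oil samples and 36.0 to 50.8 TPM in the LC-DTR vehicle samples, while the Mmp2 part stays between 309 and 659 TPM in all samples.

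Among the ADAMTS proteases that cut proteoglycans, 5 of the 6 tested rose and 1 fell after croton oil in LC-DTA, and 4 rose and 0 fell in LC-DTR. Over all tested genes 24.2% rose and 34.5% fell in LC-DTA, and 22.1% rose and 29.5% fell in LC-DTR. Of the 6, the aggrecanase Adamts4 (chr1:171250421-171260637) changed the most. It stood at 14.6, 19.4, 22.9 and 19.3 TPM in the croton oil samples and 1.45, 1.19 and 1.88 TPM in the vehicle samples of LC-DTA. In LC-DTR, Adamts4 stood at 15.0, 8.66, 9.16 and 10.5 TPM in the croton oil samples and 0.554, 0.449 and 0.424 TPM in the vehicle samples. No croton oil sample lay near a vehicle sample, and the genotypes overlapped after croton oil by 1 sample of each. It rose by 2.99 ± 0.17 (adjusted p = 2.71e-07) in LC-DTA and by 2.98 ± 0.17 (adjusted p = 2.36e-07) in LC-DTR, with no call for the difference of the responses (0.019 ± 0.24, adjusted p = 0.966). With a pseudocount of 5 these rises were 1.88 in LC-DTA and 1.52 in LC-DTR. It was higher in LC-DTA after croton oil by 0.77 ± 0.16 (adjusted p = 0.00117) and under vehicle by 0.75 ± 0.18 (adjusted p = 0.0097), the vehicle call being lost with a pseudocount of 5 (0.25, adjusted p = 0.191) and with quantile normalization (0.52, adjusted p = 0.0509).

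Adamts1, an inflammation-induced versican-cleaving protease, had the highest level of the 19 Adamts genes. It stood at 129, 131, 135 and 139 TPM in the croton oil samples and 51.4, 75.0 and 61.4 TPM in the vehicle samples of LC-DTA. In LC-DTR, Adamts1 stood at 172, 150.4, 143 and 124 TPM in the croton oil samples and 72.2, 112 and 69.9 TPM in the vehicle samples. It rose by 1.10 ± 0.16 (adjusted p = 5.63e-05) in LC-DTA and by 0.82 ± 0.16 (adjusted p = 7.26e-04) in LC-DTR. The genotypes were not called different under vehicle (-0.41 ± 0.17, adjusted p = 0.0866), but Adamts1 was called lower in LC-DTA with median ratio scaling (-0.53, adjusted p = 0.0415) and without LC-DTR vehicle sample 3 or LC-DTA vehicle sample 2, at -0.55 to -0.53 and adjusted p = 0.0430 to 0.0472. Its neighbour on chromosome 16, the aggrecanase Adamts5, stood at 13.6, 16.1, 17.5 and 14.9 TPM in the croton oil samples and 9.71, 10.6 and 10.4 TPM in the vehicle samples of LC-DTA. In LC-DTR, Adamts5 stood at 10.5, 7.51, 7.46 and 8.72 TPM in the croton oil samples and 5.47, 4.19 and 5.48 TPM in the vehicle samples. Croton oil and vehicle samples of a genotype did not overlap, nor did the genotypes under 1 treatment, while LC-DTA vehicle and LC-DTR croton oil samples did. It rose by 0.55 ± 0.12 (adjusted p = 0.00148) in LC-DTA and by 0.66 ± 0.12 (adjusted p = 5.87e-04) in LC-DTR and was higher in LC-DTA by 0.80 ± 0.11 (adjusted p = 7.46e-05) after croton oil and 0.90 ± 0.13 (adjusted p = 7.96e-04) under vehicle.

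Adamts9, which cuts versican and is also needed for secretion and cilia, stood at 9.34, 11.1, 12.9 and 12.8 TPM in the croton oil samples and 4.61, 4.84 and 5.27 TPM in the vehicle samples of LC-DTA. In LC-DTR, Adamts9 stood at 13.6, 11.7, 11.3 and 11.8 TPM in the croton oil samples and 2.61, 2.24 and 3.46 TPM in the vehicle samples. The genotypes overlapped after croton oil, and under vehicle LC-DTA lay above LC-DTR. It rose by 1.08 ± 0.12 (adjusted p = 1.13e-05) in LC-DTA and by 1.81 ± 0.12 (adjusted p = 6.85e-07) in LC-DTR, and the responses differed by -0.73 ± 0.18 (adjusted p = 0.0108). It was higher in LC-DTA under vehicle by 0.66 ± 0.13 (adjusted p = 0.00374) and was not called after croton oil (-0.069 ± 0.12, adjusted p = 0.64).

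Adamts8 and Adamts15, neighbours on chromosome 9 at chr9:30899155-30963838, differed in their responses. Adamts8 stood at 2.53, 3.84, 3.91 and 2.40 TPM in the croton oil samples and 1.13, 1.39 and 0.818 TPM in the vehicle samples of LC-DTA. In LC-DTR, Adamts8 stood at 1.09, 0.470, 0.626 and 0.692 TPM in the croton oil samples and 0.828, 0.647 and 0.546 TPM in the vehicle samples. The LC-DTA croton oil samples lay above all other samples. It rose in LC-DTA by 0.97 ± 0.16 (adjusted p = 1.85e-04) and was not called in LC-DTR (0.030 ± 0.16, adjusted p = 0.892), and the responses differed by 0.94 ± 0.23 (adjusted p = 0.0106).

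Adamts15 stood at 4.23, 5.65, 4.13 and 3.82 TPM in the croton oil samples and 8.43, 10.7 and 10.4 TPM in the vehicle samples of LC-DTA. In LC-DTR, Adamts15 stood at 3.69, 3.26, 3.83 and 2.86 TPM in the croton oil samples and 4.63, 2.71 and 5.29 TPM in the vehicle samples. The LC-DTA vehicle samples lay above all others. Adamts15 was higher in LC-DTA than in LC-DTR under vehicle by 1.09 ± 0.18 (adjusted p = 0.00132). It fell after croton oil in LC-DTA by 0.995 ± 0.17 (adjusted p = 2.15e-04) and was not called in LC-DTR (-0.21 ± 0.17, adjusted p = 0.31), except without LC-DTR vehicle sample 2 (-0.44, adjusted p = 0.0223). The difference of the responses, -0.78 ± 0.24 (adjusted p = 0.0294), was lost without LC-DTR vehicle sample 2, LC-DTA vehicle sample 2 or 3 or LC-DTA croton oil sample 3 or 4, at -0.76 to -0.56 and adjusted p = 0.0522 to 0.0750, and without LC-DTR croton oil samples 2 and 3 (-0.74, adjusted p = 0.0757). That call was also lost without LC-DTA croton oil samples 3 and 4 together (-0.66, adjusted p = 0.110). Adamts20, known for pigment cell development, was at most 1.39 TPM and was not tested.

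The 3 proteases that trim procollagens all fell after croton oil in LC-DTA, and 1 of them fell in LC-DTR. Falls were called for 34.5% of all tested genes in LC-DTA and 29.5% in LC-DTR. Adamts2, the main procollagen I N-proteinase of skin, stood at 25.3, 35.1, 24.4 and 30.6 TPM in the croton oil samples and 39.9, 45.1 and 55.6 TPM in the vehicle samples of LC-DTA. In LC-DTR, Adamts2 stood at 15.7, 20.5, 20.2 and 13.0 TPM in the croton oil samples and 17.9, 13.5 and 23.6 TPM in the vehicle samples. LC-DTA samples lay above all LC-DTR samples. It fell in LC-DTA by 0.68 ± 0.19 (adjusted p = 0.00812), a call lost without LC-DTA croton oil samples 3 and 4 (-0.62, adjusted p = 0.0510), and was higher in LC-DTA by 0.71 ± 0.18 (adjusted p = 0.00468) after croton oil and by 1.33 ± 0.21 (adjusted p = 0.00111) under vehicle.

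Adamts14, a close relative, stood at 14.2, 15.5, 12.6 and 17.3 TPM in the croton oil samples and 36.0, 45.5 and 38.8 TPM in the vehicle samples of LC-DTA. In LC-DTR, Adamts14 stood at 13.5, 19.4, 18.2 and 14.7 TPM in the croton oil samples and 34.0, 25.9 and 35.1 TPM in the vehicle samples. Croton oil samples lay below vehicle samples in both genotypes. It fell by 1.37 ± 0.14 (adjusted p = 5.50e-06) in LC-DTA and by 0.91 ± 0.14 (adjusted p = 1.81e-04) in LC-DTR. Adamts3, which also activates the lymphatic growth factor VEGF-C, averaged 2.77 ± 0.381 TPM in LC-DTA croton oil and 5.55 ± 0.185 TPM in LC-DTA vehicle, and 1.93 ± 0.443 TPM in LC-DTR croton oil and 2.65 ± 0.693 TPM in LC-DTR vehicle. It fell in LC-DTA by 0.80 ± 0.14 (adjusted p = 3.12e-04) and was not called in LC-DTR (-0.31 ± 0.14, adjusted p = 0.08) except without LC-DTR croton oil samples 2 and 3 (-0.43, adjusted p = 0.0356), and it was higher in LC-DTA by 0.37 ± 0.13 (adjusted p = 0.0286) after croton oil and by 0.86 ± 0.15 (adjusted p = 0.00182) under vehicle. The procollagen substrates Col1a1 and Col3a1 averaged 683 ± 156 and 1266 ± 272 TPM in LC-DTA croton oil, 1219.7 ± 316 and 1923 ± 356 TPM in LC-DTA vehicle, 248 ± 74.6 and 282 ± 98.3 TPM in LC-DTR croton oil, and 404 ± 251 and 639 ± 588 TPM in LC-DTR vehicle.

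Of the 5 other ADAMTS genes tested, 4 fell in LC-DTA and 3 fell in LC-DTR, and all 5 were higher in LC-DTA under vehicle. Over all tested genes 34.5% fell in LC-DTA, 29.5% fell in LC-DTR and 19.1% were higher in LC-DTA under vehicle. Adamts10, a protease of fibrillin microfibrils, stood at 8.53, 9.17, 7.73 and 7.95 TPM in the croton oil samples and 16.6, 24.1 and 23.5 TPM in the vehicle samples of LC-DTA. In LC-DTR, Adamts10 stood at 7.74, 7.02, 8.74 and 6.01 TPM in the croton oil samples and 14.4, 10.1 and 10.3 TPM in the vehicle samples. Croton oil samples lay below the vehicle samples of both genotypes. It fell by 1.25 ± 0.15 (adjusted p = 1.50e-05) in LC-DTA and by 0.58 ± 0.15 (adjusted p = 0.00522) in LC-DTR and was higher in LC-DTA under vehicle by 0.83 ± 0.16 (adjusted p = 0.00291). The difference of the responses, -0.66 ± 0.21 (adjusted p = 0.0362), was lost in 8 of the 14 fits with 1 sample left out, at -0.65 to -0.57 and adjusted p = 0.0579 to 0.0997, with the replicate number as a block (-0.66, adjusted p = 0.0634) and without LC-DTR croton oil samples 2 and 3 (-0.58, adjusted p = 0.0958). That call was also lost without LC-DTA croton oil samples 3 and 4 together (-0.59, adjusted p = 0.119).

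Adamts17, also tied to fibrillin microfibrils, stood at 2.41, 2.76, 1.81 and 1.76 TPM in the croton oil samples and 2.74, 2.82 and 3.40 TPM in the vehicle samples of LC-DTA. In LC-DTR, Adamts17 stood at 1.09, 1.04, 1.04 and 1.13 TPM in the croton oil samples and 0.922, 0.630 and 1.32 TPM in the vehicle samples. LC-DTA samples lay above all LC-DTR samples, with overlap between treatments. Adamts17 was higher in LC-DTA by 0.60 ± 0.12 (adjusted p = 0.00113) after croton oil and by 1.04 ± 0.14 (adjusted p = 6.83e-04) under vehicle. Its fall in LC-DTA, -0.33 ± 0.13 (adjusted p = 0.0449), was lost in 10 of the 14 fits with 1 sample left out, at -0.38 to -0.26 and adjusted p = 0.0529 to 0.168, with quantile normalization (-0.19, adjusted p = 0.197), and without LC-DTA croton oil samples 3 and 4 (-0.15, adjusted p = 0.408) or LC-DTR croton oil samples 2 and 3 (-0.33, adjusted p = 0.0619).

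Adamts7 and Adamts12, which cut the cartilage protein COMP, and Adamts6 lay between 0.578 and 4.25 TPM in all samples. Adamts7 fell by 0.61 ± 0.10 (adjusted p = 2.24e-04) in LC-DTA and by 0.44 ± 0.10 (adjusted p = 0.00292) in LC-DTR, and Adamts6 by 0.55 ± 0.13 (adjusted p = 0.00206) in LC-DTA and by 0.34 ± 0.13 (adjusted p = 0.0361) in LC-DTR. The exons of Adamts7 share 122 bases with Tbc1d2b on the other strand, which reached 58.0 TPM. Adamts12 was called neither in LC-DTA (-0.44 ± 0.18, adjusted p = 0.0529) nor in LC-DTR (-0.36 ± 0.18, adjusted p = 0.122), except without LC-DTR croton oil samples 2 and 3 (-0.44, adjusted p = 0.0471 in LC-DTA and -0.56, adjusted p = 0.0429 in LC-DTR). Adamts12 was higher in LC-DTA by 0.74 ± 0.17 (adjusted p = 0.00261) after croton oil and 0.83 ± 0.20 (adjusted p = 0.00893) under vehicle. Adamts13, the von Willebrand factor protease of plasma made in the liver, was at most 0.290 TPM, and Adamts16, Adamts18 and Adamts19 were at most 0.110, 0.338 and 0.353 TPM.

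Of the 4 inhibitors only Timp1 rose. Timp1 (chrX:20870166-20874735), a secreted inhibitor of most soluble MMPs, stood at 118, 209, 185 and 148 TPM in the croton oil samples and 21.1, 16.7 and 18.7 TPM in the vehicle samples of LC-DTA. In LC-DTR, Timp1 stood at 53.5, 19.3, 24.2 and 42.4 TPM in the croton oil samples and 9.25, 9.71 and 11.7 TPM in the vehicle samples. All LC-DTA croton oil samples lay above all others, and among the LC-DTR croton oil samples 2 and 3 were lower than 1 and 4. It rose by 3.04 ± 0.28 (adjusted p = 2.67e-06) in LC-DTA and by 1.57 ± 0.28 (adjusted p = 4.60e-04) in LC-DTR, and was higher in LC-DTA after croton oil by 2.29 ± 0.26 (adjusted p = 1.66e-05). The responses differed by 1.47 ± 0.40 (adjusted p = 0.0183). Without LC-DTR croton oil samples 2 and 3 the rise in LC-DTR was 2.12 (adjusted p = 1.03e-05) and the difference of the responses 0.91 (adjusted p = 0.0316), and without LC-DTA croton oil samples 3 and 4 the difference was 1.43 (adjusted p = 0.0557). Under vehicle the genotypes were not called different (0.82 ± 0.30, adjusted p = 0.0602), except without LC-DTR croton oil sample 1 or 2 (0.82, adjusted p = 0.0286 to 0.0296) and without LC-DTR croton oil samples 2 and 3 (0.82, adjusted p = 0.00755).

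As for Timp1, Mmp1b, Mmp1a and Adamts8, a positive difference of the responses was called for Ccr2 and Ly6c2, markers of inflammatory monocytes. Ccr2, a chemokine receptor, averaged 37.9 ± 5.31 TPM in LC-DTA croton oil, 5.74 ± 0.677 TPM in LC-DTA vehicle, 6.44 ± 1.72 TPM in LC-DTR croton oil and 7.25 ± 1.65 TPM in LC-DTR vehicle, a difference of responses of 2.68 ± 0.25 (adjusted p = 8.20e-05). Ly6c2, a surface antigen, averaged 48.7 ± 11.6 TPM in LC-DTA croton oil, 3.81 ± 1.23 TPM in LC-DTA vehicle, 4.76 ± 1.82 TPM in LC-DTR croton oil and 2.58 ± 2.24 TPM in LC-DTR vehicle, a difference of 2.58 ± 0.49 (adjusted p = 0.00311). The 8 monocyte and macrophage markers in the table, none at 0 in every sample, summed to 488 to 589 TPM in LC-DTA croton oil, 439.8 to 561 TPM in LC-DTA vehicle, 277 to 372 TPM in LC-DTR croton oil and 221 to 329 TPM in LC-DTR vehicle. For the difference of the responses 2 of the 8, Ccr2 and Ly6c2, were positive and 2, C1qa and C1qb, negative, and under vehicle 6 of the 8 were higher in LC-DTA. A positive difference was also called for 1 of 7 neutrophil markers, Cd177, and 3 of 6 keratinocyte markers, Krt14, Krt5 and Krt10. In these 2 lists 0 were negative. Of all tested genes 10.5% had a positive and 12.6% a negative difference, and 19.1% were higher in LC-DTA under vehicle. The part of the cells with these markers in the results for the members was not tested.

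Timp3, bound to the matrix and an inhibitor of aggrecanases and of ADAM17, stood at 342, 457, 342 and 365 TPM in the croton oil samples and 459, 415 and 481 TPM in the vehicle samples of LC-DTA. In LC-DTR, Timp3 stood at 289, 306, 380.2 and 240.4 TPM in the croton oil samples and 494, 419.7 and 359.7 TPM in the vehicle samples. The groups overlapped. It fell in LC-DTR by 0.49 ± 0.15 (adjusted p = 0.0126), a call lost without LC-DTR vehicle sample 1 (-0.37, adjusted p = 0.0692), and was not called in LC-DTA (-0.27 ± 0.15, adjusted p = 0.126), except without LC-DTA croton oil sample 2 (-0.37, adjusted p = 0.0448). Without LC-DTR croton oil samples 2 and 3 it was called higher in LC-DTA after croton oil (0.50, adjusted p = 0.0129). Its exons share 1733 bases with Syn3 on the other strand, which reached 0.868 TPM.

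Timp4, an inhibitor of restricted tissue range, stood at 9.81, 10.6, 10.5 and 10.5 TPM in the croton oil samples and 21.8, 21.9 and 24.2 TPM in the vehicle samples of LC-DTA. In LC-DTR, Timp4 stood at 18.0, 22.2, 23.1 and 16.2 TPM in the croton oil samples and 24.3, 20.8 and 18.6 TPM in the vehicle samples. The LC-DTA croton oil samples lay below all other samples. It fell in LC-DTA by 1.06 ± 0.12 (adjusted p = 7.65e-06), was not called in LC-DTR (-0.097 ± 0.12, adjusted p = 0.503), and the responses differed by -0.96 ± 0.16 (adjusted p = 0.00178). Without LC-DTR croton oil samples 2 and 3 its fall in LC-DTR was called (-0.29, adjusted p = 0.0339). It was lower in LC-DTA after croton oil by 0.86 ± 0.11 (adjusted p = 2.94e-05).

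Summed Timp TPM came to 755 to 1039 in LC-DTA croton oil, 984 to 1079 in LC-DTA vehicle, 596 to 761 in LC-DTR croton oil and 715 to 897 in LC-DTR vehicle. Timp2 and Timp3 held 77.2 to 96.3% of it. The share of Timp1 was 15.6 to 21.6% in LC-DTA croton oil, 1.69 to 2.13% in LC-DTA vehicle, 2.73 to 7.77% in LC-DTR croton oil and 1.03 to 1.60% in LC-DTR vehicle. Set against the summed Mmp genes, Timp1 stood at 9.14 to 13.8 TPM per 100 Mmp TPM in LC-DTA croton oil, 1.60 to 1.92 in LC-DTA vehicle, 2.76 to 7.21 in LC-DTR croton oil and 1.49 to 1.80 in LC-DTR vehicle.

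Genes that activate or restrain these proteases changed too. Of 19 tested, 9 rose and 6 fell after croton oil in LC-DTA, and 10 rose and 2 fell in LC-DTR, with a median of 0.25 in LC-DTA and 0.46 in LC-DTR. Over all tested genes 24.2% rose and 34.5% fell in LC-DTA, and 22.1% rose and 29.5% fell in LC-DTR. The urokinase receptor Plaur, which concentrates plasmin formation at the cell surface, averaged 78.9 ± 5.83 TPM in LC-DTA croton oil and 29.3 ± 5.94 TPM in LC-DTA vehicle, and 50.6 ± 14.2 TPM in LC-DTR croton oil and 9.60 ± 0.462 TPM in LC-DTR vehicle. It rose by 1.41 ± 0.18 in LC-DTA (adjusted p = 1.99e-05) and by 2.24 ± 0.18 in LC-DTR (adjusted p = 1.30e-06). Lcn2, which binds and protects MMP9, rose by 2.68 ± 0.29 in LC-DTA (adjusted p = 7.60e-06) and by 2.26 ± 0.29 in LC-DTR (adjusted p = 4.54e-05). Furin, the convertase that activates Mmp14, Mmp11 and ADAMTS precursors, rose by 0.46 ± 0.070 in LC-DTA (adjusted p = 8.85e-05) and by 0.76 ± 0.070 in LC-DTR (adjusted p = 3.36e-06). Reck, a membrane-anchored inhibitor of MMP2, MMP9 and MMP14, fell by 0.65 ± 0.13 on the log2 scale in LC-DTA (adjusted p = 6.31e-04), and was higher in LC-DTA under vehicle by 0.70 ± 0.13 (adjusted p = 0.00295).

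Of the 10 ADAM proteases tested, membrane relatives that shed cell-surface proteins, 3 rose and 5 fell in LC-DTA, and 3 rose and 0 fell in LC-DTR. Over all tested genes 24.2% rose and 34.5% fell in LC-DTA, and 22.1% rose and 29.5% fell in LC-DTR. Adam8, a leukocyte protease, averaged 63.6 ± 7.03 TPM in LC-DTA croton oil, 17.0 ± 2.85 TPM in LC-DTA vehicle, 71.1 ± 14.1 TPM in LC-DTR croton oil and 18.4 ± 2.76 TPM in LC-DTR vehicle. It rose by 1.85 ± 0.15 in LC-DTA (adjusted p = 1.42e-06) and by 1.88 ± 0.15 in LC-DTR (adjusted p = 1.42e-06). The 7 ADAMTS-like proteins, which share the ancillary domains but no protease, all fell in LC-DTA, with a median of -0.79, and 3 of the 7 fell in LC-DTR, with a median of -0.25. Papilin (Papln) averaged 4.96 ± 1.19 TPM in LC-DTA croton oil, 17.5 ± 2.80 TPM in LC-DTA vehicle, 19.3 ± 3.77 TPM in LC-DTR croton oil and 18.8 ± 3.37 TPM in LC-DTR vehicle. Its responses differed by -1.67 ± 0.25 (adjusted p = 9.20e-04).

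Of 20 matrix substrates tested, 1 rose and 8 fell after croton oil in LC-DTA, and 2 rose and 5 fell in LC-DTR. Over all tested genes 24.2% rose and 34.5% fell in LC-DTA, and 22.1% rose and 29.5% fell in LC-DTR. Between the genotypes 14 were higher in LC-DTA after croton oil and 13 under vehicle, and 0 were lower in either, with a median of 0.61 after croton oil and 0.80 under vehicle, against 0.093 after croton oil and 0.097 under vehicle over all tested genes. Of all tested genes 34.3% were higher in LC-DTA after croton oil and 19.1% under vehicle. The 1 substrate that rose in LC-DTA was versican (Vcan), the large proteoglycan cut by Adamts1, Adamts4, Adamts5 and Adamts9. It averaged 10.5 ± 1.26 TPM in LC-DTA croton oil and 5.22 ± 0.299 TPM in LC-DTA vehicle, a rise of 0.88 ± 0.16 (adjusted p = 3.82e-04), and 3.81 ± 0.982 TPM in LC-DTR croton oil and 2.83 ± 0.869 TPM in LC-DTR vehicle. Aggrecan (Acan), the cartilage proteoglycan after which aggrecanases are named, averaged 35.4 ± 6.77 TPM in LC-DTA croton oil, 45.1 ± 4.71 TPM in LC-DTA vehicle, 43.0 ± 8.29 TPM in LC-DTR croton oil and 38.5 ± 8.31 TPM in LC-DTR vehicle.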

How the data were processed

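mRNA of whole mouse ear was sequenced from 14 samples in 4 groups. The deposited values are TPM per gene, made by the authors. Per the submitters' processing notes, cutadapt, HISAT2, Subread and featureCounts were used with mm10; the sources used here state no versions, annotation, strand setting or formula for TPM. Since read depth is not kept in TPM, no counting interval can be given, and a value of 0 may be a failed estimate. Because TPM sum to the same total in each sample, a change in abundant genes moves all others. Of 24062 rows, 27 with dates in place of gene names (0.124 to 0.145% of TPM) were left out.

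log2(TPM + 1) was tested with limma 3.58.1 (trended empirical Bayes, Benjamini-Hochberg over 14693 genes with at least 1 TPM in at least 3 samples; 9342 genes fell below). In 5 comparisons, croton oil was set against vehicle within LC-DTA and within LC-DTR, LC-DTA against LC-DTR after each paint, and 1 response against the other. The test was checked on simulated data. Members and gene lists were chosen with earlier results of these data known. Genes were matched to GENCODE M21 and, for start sites, RefSeq windows on GRCm38.p6 (32 of the 46). By rule, values in every sample are given for the 4 Timp genes, Mmp2, Mmp3, Mmp8, Mmp9, Mmp13, Mmp14, Adamts1, Adamts4, Adamts5 and every member called with an absolute log2 difference of at least 1; other lists are represented by up to 4 called genes with the lowest p and the most abundant markers. Per-sample values of further members, and Reck, Acan, Col1a1, Col3a1, Matn1, Cd207, Cd1d1, Epcam, Pdgfra, Lum, Ccr2 and Ly6c2, were chosen after their values were seen. Refits used a pseudocount of 0.1 or 5, a filter of 5 TPM or none, median ratio scaling, quantile normalization, each sample or the pairs named left out, and replicate number as a block.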

Additional observations from a re-analysis of the deposited data

Results flagged for a closer look

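Among groups of 4 samples, 4 of 72 (5.56%) had 1 sample far from the others, where chance gives about 1 in 20. Mmp1b was at 11.2 TPM in LC-DTA croton oil sample 1, below the other 3 samples. Mmp13 was at 3.41 TPM and Mmp14 at 109.8 TPM in LC-DTA croton oil sample 4, each the lowest of its group. Timp4 was at 9.81 TPM in LC-DTA croton oil sample 1, also the lowest.

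The croton oil response differed between the genotypes, LC-DTA minus LC-DTR on the log2 scale, for 13 genes by the test of the difference itself. It was positive for Timp1 (1.47), Mmp1b (1.32), Adamts8 (0.94) and Mmp1a (0.60), the last of which passed the filter only through the LC-DTA croton oil samples. It was negative for Mmp11 (-1.41), Timp4 (-0.96), Adamts15 (-0.78), Adamts9 (-0.73), Timp2 (-0.72), Mmp14 (-0.68), Adamts10 (-0.66), Mmp2 (-0.65) and Mmp17 (-0.39). Adamts9 rose in both genotypes and Adamts10 fell in both, so that their differences are of size, whereas Mmp2, Timp2, Timp4, Mmp11 and Mmp17 were called in LC-DTA and not in LC-DTR.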

How the results depend on the processing

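Of 3075 rechecked values of 27 genes, 2969 stayed on the same side of the threshold, 83 lost and 23 gained a call. Where a value was called in either fit, 0 changed direction. A change of direction between 2 uncalled values was not counted. Counts of called members moved by over 1.5 times as follows. LC-DTA lower under vehicle, 0 as reported, became 2 with median ratio scaling and 1 with quantile normalization. After croton oil, 18 genes higher in LC-DTA became 10 with a filter of 5 TPM, and 4 lower became 2 without LC-DTA croton oil samples 3 and 4. The 4 positive differences of the responses became 2 with a pseudocount of 0.1, with a filter of 5 TPM, and without LC-DTA croton oil samples 3 and 4, where Mmp1a no longer reached the filter.

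With 1 sample left out, genes rising in LC-DTA ranged over 13 to 14 and falling over 14 to 18, and those in LC-DTR over 12 to 14 and 5 to 10. LC-DTA was higher for 13 to 18 and lower for 4 after croton oil, and higher for 17 to 21 and lower for 0 to 2 under vehicle. Positive differences of the responses were 3 to 4 and negative ones 6 to 9.

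Replicate numbers did not pair the samples: over 19 same-numbered pairs the correlation of deviations was -0.315 to 0.126 (median -0.0683). With the replicate block 13 genes rose and 15 fell in LC-DTA, 14 rose and 6 fell in LC-DTR, LC-DTA was higher for 16 and lower for 4 after croton oil and higher for 19 and lower for 0 under vehicle, and the responses differed for 4 upwards and 7 downwards. The pseudocount sets the size of change of genes near 1 TPM. Depth is unknown, so differences between genes near 0 TPM cannot be given a counting error. Genotype is not separated from toxin or time without Langerhans cells.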
